A study of Homo sapiens with 8 samples.

Results

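SREBF2, HMGCS1, IDI1, FDFT1, SQLE, LSS, DHCR7 and INSIG1 were followed in clear cell renal cell carcinoma (ccRCC) cells, as 8 genes of cholesterol synthesis and of its control by the transcription factor SREBP2. The genes were chosen by name from this pathway, and each level is the sum of the values that the deposited tables gave for the protein-coding RefSeq entries of the gene. All 8 were found, among 18689 genes in all, and all 8 were among the 10501 genes with a mean of at least 1 FPKM (fragments scaled to the length of the transcript and to the mapped reads of the library) that were tested. RNA-seq had been carried out on 2 established human ccRCC lines, A498 grown in DMEM and 786-O grown in RPMI-1640, both with 10% fetal bovine serum. Each line was transfected with siRNA at 50 nM for 16 h, in 2 libraries with non-targeting control siRNA (NTC), 1 library with siRNA #1 and 1 with siRNA #2, both directed against the lincRNA SLINKY, so that 8 libraries were made in all. The study's methods give a later time after transfection for isolating RNA. Every library came from transfected cells, each line stands for 1 tumor, and the line and its medium cannot be told apart. No label states that the NTC libraries of a line came from separate cultures, so the spread between these libraries may be technical. The p-values for the lines and for each siRNA rest on that spread and on how far a siRNA's change differed between the lines. They also borrow from the spread of other genes.

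Cells make cholesterol from acetyl-CoA by way of mevalonate, isoprenoid diphosphates, squalene and lanosterol. When sterols in the endoplasmic reticulum are scarce, SCAP carries SREBP2 to the Golgi, where proteases release its active part, which enters the nucleus and switches on the enzymes of the route, its own gene and INSIG1. When sterols are plentiful, INSIG1 holds SCAP and SREBP2 back in the endoplasmic reticulum, which closes a feedback loop. Clear cell tumors of the kidney take their name from cytoplasm that looks empty after lipid and glycogen have been washed out, and stored cholesteryl ester is a known part of that lipid.

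SREBP2 binds sterol regulatory elements (SRE), often beside a CCAAT box bound by NF-Y. The RefSeq promoter table of the GRCh38.p14 assembly held 10 windows for 6 of the 8 genes, and FDFT1 and SQLE were not matched. In the 250 bases before each start, on both strands, the SRE letters TCACNCCAC occurred in 1 of the 10 windows, against 0.883% of the 35116 windows in the table. That window was the one of SREBF2 itself, with the first base 133 bases upstream, so that 1 of the 6 genes had a match. Some windows of HMGCS1 and of IDI1 partly overlap another window of the same gene. The NF-Y letters CCAAT occurred in at least 1 window of each of the 6 genes and in 7 of their 10 windows, against 32.0% of all windows. GGGCGG, a GC box, occurred in 9 of the 10 windows (42.6% of all) and the E-box CACGTG in 1, that of INSIG1 (6.34% of all). These are letter matches, and a window without one says only that these letters are not in it. The windows shown are those of SREBF2, which holds the SRE match, and of INSIG1 and DHCR7, the genes with the widest differences between the cell lines in either direction. The SREBF2 window lay at chr22:41832855-41833104 on the plus strand, the INSIG1 window at chr7:155297628-155297877 on the plus strand and the first DHCR7 window at chr11:71448394-71448643 on the minus strand. Capitals mark the SRE match (in SREBF2 alone) and the NF-Y matches, which read ATTGG where the box is on the other strand.
SREBF2: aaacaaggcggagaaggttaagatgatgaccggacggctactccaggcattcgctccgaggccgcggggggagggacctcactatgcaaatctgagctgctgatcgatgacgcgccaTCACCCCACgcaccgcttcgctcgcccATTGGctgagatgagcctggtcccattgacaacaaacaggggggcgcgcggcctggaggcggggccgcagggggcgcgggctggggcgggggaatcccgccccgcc
INSIG1: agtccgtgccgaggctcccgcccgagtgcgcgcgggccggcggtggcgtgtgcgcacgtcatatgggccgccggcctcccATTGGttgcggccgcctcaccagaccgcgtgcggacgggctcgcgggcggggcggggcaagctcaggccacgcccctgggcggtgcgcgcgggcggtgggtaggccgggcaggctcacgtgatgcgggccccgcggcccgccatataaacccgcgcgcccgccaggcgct
DHCR7: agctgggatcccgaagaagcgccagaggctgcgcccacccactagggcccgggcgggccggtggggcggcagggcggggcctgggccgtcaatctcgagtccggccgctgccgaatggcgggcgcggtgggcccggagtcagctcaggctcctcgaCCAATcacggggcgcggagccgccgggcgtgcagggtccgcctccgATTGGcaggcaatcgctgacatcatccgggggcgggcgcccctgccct

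The knockdown was checked first on its target. SLINKY, read from its own entry on chromosome 7 (hg19, 106415457 to 106436010), stood at 14.6 and 16.1 FPKM in the A498 NTC libraries, 1.64 with siRNA #1 and 3.01 with siRNA #2. In 786-O cells it stood at 1.45 and 1.39 FPKM with NTC, 0.0569 with siRNA #1 and 0.594 with siRNA #2. The deposited interval of the siRNA #1 library there (0.0391 to 0.0747 FPKM) is as narrow as 40.9 reads would give, against 11.0 for the first NTC library at a far higher FPKM, so the size of the fall in that library is uncertain. Depth, estimated from single-exon genes, ranged from 25100000 to 64600000 mapped reads per library. The renal transcription factor PAX8 was present in every library, at 39.2 to 48.1 FPKM, while the leukocyte marker PTPRC was listed at 0 in all 8, and PECAM1 and CDH5 (endothelium) and ALB (liver) did not exceed 0.0778 FPKM. Of 6 markers of renal and ccRCC cells, 5 were tested, with 2 higher in A498 and 3 higher in 786-O by limma, where 83.8% of all genes were called. The one left untested, CA9, a hypoxia target typical of ccRCC, stood at 0.293 to 0.559 FPKM in A498 and at 0 to 0.0229 in 786-O. The genes studied here were all expressed. Their mean levels over the 8 libraries ran from 9.59 FPKM for LSS, the 49.8th percentile of the genes tested, to 50.0 FPKM for FDFT1, the 83.8th percentile.

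Since FPKM is a level per length, the genes can be ordered within a line. FDFT1 was the highest of the 8 in both lines, at 60.7 ± 2.0 FPKM (SD, n = 4) in A498 and 39.3 ± 1.41 in 786-O. INSIG1, SQLE and IDI1 followed it in A498, and IDI1, SQLE and INSIG1 in 786-O, each overlapping its neighbor in that order over the 4 libraries. Within single libraries the order was steadier, since INSIG1 was above SQLE and SQLE above IDI1 in all 4 A498 libraries, and SQLE was above INSIG1 in all 4 libraries of 786-O, while FDFT1 was above the next gene in 3 of 4 libraries of each line. HMGCS1, DHCR7, SREBF2 and LSS formed the lower part in both lines, and the gap below the 4 higher genes was wide, from 40.1 ± 2.05 FPKM for IDI1 to 15.5 ± 1.39 for HMGCS1 in A498 and from 31.4 ± 2.34 for INSIG1 to 18.9 ± 1.39 for DHCR7 in 786-O. HMGCS1 led this lower part in A498 and was last in 786-O, where DHCR7 led it. Within the lower part, DHCR7 and SREBF2 overlapped in A498 although DHCR7 was above in all 4 libraries, and SREBF2, LSS and HMGCS1 overlapped in 786-O.

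**Figure D1:**
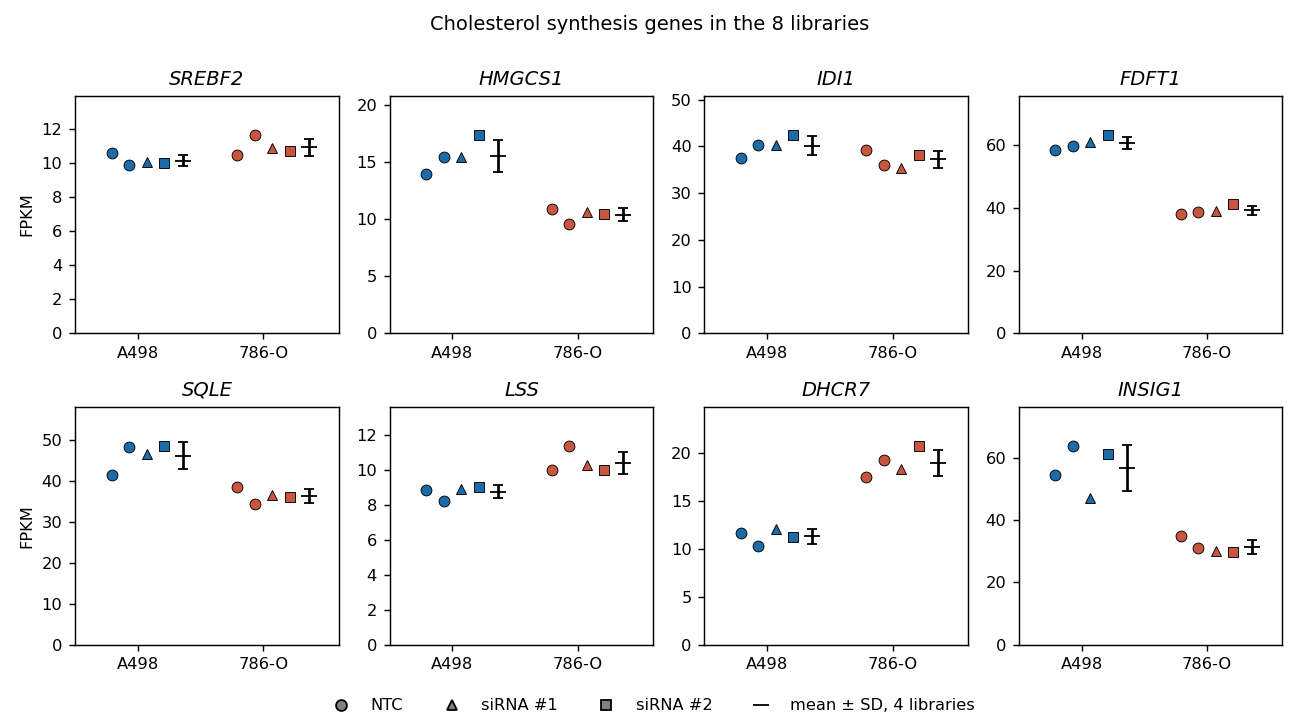
FPKM (y axis, from 0) of each of the 8 genes in the 4 A498 (blue) and 4 786-O (red) libraries, with circles for NTC, triangles for siRNA #1, squares for siRNA #2 and black bars for the mean ± SD of the 4 libraries of a line. HMGCS1, FDFT1, SQLE and INSIG1 sit higher in all A498 libraries than in any 786-O library, LSS and DHCR7 sit lower, and the libraries of SREBF2 and IDI1 overlap.

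The cell lines differed in 6 of the 8 genes, and in both directions. INSIG1, FDFT1, HMGCS1 and SQLE were higher in A498 (by 1.79-, 1.54-, 1.49- and 1.27-fold), DHCR7 and LSS were higher in 786-O (by 1.67- and 1.18-fold), and SREBF2 and IDI1 did not pass the test. The share is not particular to these genes, because limma called that 83.8% of all genes tested between the lines, 41.0% as higher in A498 and 42.8% as higher in 786-O. The same 6 genes had no overlap between the 4 libraries of one line and the 4 of the other, which held for 77.3% of all genes. The median size of the difference, on the log2(FPKM + 0.1) scale, was 0.46 for the 8 genes and 0.50 for all genes. RNA came from whole cultures, so fewer cells expressing a gene and less RNA per cell cannot be told apart. The test was limma's moderated test with the siRNAs as covariates and Benjamini-Hochberg adjustment over all genes tested.

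SREBF2 encodes SREBP2, the factor that drives the pathway. It stood at 10.6 and 9.87 FPKM in the A498 NTC libraries, 10.0 with siRNA #1 and 9.99 with siRNA #2, and at 10.5, 11.6, 10.9 and 10.7 FPKM in the matching 786-O libraries. The lines overlapped, since the higher A498 NTC library lay above the lower 786-O NTC library. The A498 minus 786-O log2 difference was -0.11 ± 0.05 (SE), with a 95% interval from -0.22 to 0.01 and an adjusted p of 0.0722 by limma. The level of the transcript does not show how much of the protein was cleaved.

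INSIG1, the anchor that keeps SCAP and SREBP2 in the endoplasmic reticulum and itself a target of SREBP2, differed most. It stood at 54.5 and 63.7 FPKM in the A498 NTC libraries, 47.2 with siRNA #1 and 61.1 with siRNA #2. In 786-O it stood at 34.8, 31.2, 30.0 and 29.7 FPKM in the same order. The lowest A498 library was above the highest of 786-O, and the A498 libraries spread the most of any gene here (SD of 7.38 FPKM). The log2 difference was 0.84 ± 0.07 (SE), with an adjusted p of 4.59e-06 by limma.

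HMGCS1, which makes HMG-CoA and so stands at the entry of the mevalonate route, stood at 14.0, 15.4, 15.4 and 17.4 FPKM in A498 (NTC 1, NTC 2, siRNA #1, siRNA #2) and at 10.9, 9.61, 10.6 and 10.4 FPKM in 786-O. All A498 libraries were higher, with a log2 difference of 0.57 ± 0.06 (SE) and an adjusted p of 2.22e-05 by limma. IDI1 interconverts isopentenyl and dimethylallyl diphosphate, the building blocks of all isoprenoids. It stood at 37.4, 40.2, 40.4 and 42.4 FPKM in A498 and at 39.2, 36.1, 35.3 and 38.1 FPKM in 786-O. The lines overlapped, and the log2 difference of 0.11 ± 0.05 (SE) did not pass, with an adjusted p of 0.0609 by limma.

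FDFT1, squalene synthase, joins farnesyl diphosphate into squalene and commits it to sterols. It had the smallest standard error of the 8, at 58.5, 59.9, 61.1 and 63.2 FPKM in A498 and 38.0, 38.8, 39.0 and 41.3 FPKM in 786-O. The log2 difference was 0.63 ± 0.03 (SE), and its adjusted p of 1.27e-07 by limma was the smallest of the 8. SQLE, squalene epoxidase, carries out the next step and is a rate-limiting enzyme of the later part of the route. It stood at 41.3, 48.2, 46.5 and 48.3 FPKM in A498 and at 38.4, 34.3, 36.4 and 36.0 FPKM in 786-O. The gap between the lowest A498 and the highest 786-O library was small, both being libraries numbered NTC 1, and the log2 difference was 0.34 ± 0.06 (SE), with an adjusted p of 5.48e-04 by limma.

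LSS and DHCR7, like SQLE, act after squalene is made, but unlike SQLE they were higher in 786-O. LSS, which folds the epoxide into lanosterol, stood at 8.87, 8.24, 8.90 and 9.06 FPKM in A498 and at 10.0, 11.4, 10.3 and 9.99 FPKM in 786-O. The log2 difference was -0.24 ± 0.06 (SE), with an adjusted p of 0.00383 by limma, and this was the only call of the 6 that any alternative ended. It was lost when the gene was read from its highest RefSeq entry alone, which gave a log2 difference of -0.21 with an adjusted p of 0.346 by limma. DHCR7 reduces 7-dehydrocholesterol to cholesterol and so closes the route. It stood at 11.7, 10.2, 12.0 and 11.2 FPKM in A498 and at 17.4, 19.3, 18.3 and 20.7 FPKM in 786-O. The lines were far apart, with a log2 difference of -0.74 ± 0.06 (SE) and an adjusted p of 4.30e-06 by limma. Enzymes of 1 linear route were thus higher in one line at some steps and in the other line at others.

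Other genes of the route were divided in the same manner. Of 15 further enzymes of cholesterol synthesis, 14 were tested, of which 6 were higher in A498, 5 were higher in 786-O and 3 did not pass the limma test, with a median log2 difference of 0.05. MSMO1, a C4-demethylation enzyme (0.57), MVD, which makes isopentenyl diphosphate (0.49), and PMVK, which acts just before it (0.49), were among those higher in A498. EBP, the sterol isomerase (-0.71), MVK, mevalonate kinase (-0.60), and ACAT2, which makes acetoacetyl-CoA (-0.52), were among those higher in 786-O. TM7SF2 was the enzyme left untested, at 0.726 FPKM or less in every library.

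Genes that handle SREBP and sterols also differed. Of 8 genes of SREBP processing and sterol sensing, 3 were higher in A498 and 5 in 786-O. SREBF1, the related factor that favors fatty acid genes, stood at 8.70 ± 0.67 FPKM in A498 and 2.81 ± 0.13 in 786-O (SD, n = 4), a log2 difference of 1.59, and INSIG2, the partner of INSIG1, differed by 0.60. SCAP, the SREBP escort, was lower in A498 by a log2 difference of -0.98, and MBTPS2, a protease that cleaves SREBPs, by -0.46. Of 8 genes of sterol uptake, transport and storage, 7 were tested, with 4 higher in A498 and 2 in 786-O. The widest of these were NPC2, which passes cholesterol out of the lysosome (1.35), and SCARB1, a receptor that takes up cholesterol from lipoproteins (-0.65). All 4 tested genes of a list of 5 on LXR, the receptor for oxysterols, and sterol efflux were higher in A498, led by SMPDL3A (0.91) and NR1H3, which encodes LXR alpha (0.71). Of 7 genes of fatty acid synthesis, 2 were higher in A498 and 3 in 786-O, with SCD, a desaturase, at 45.4 ± 2.06 FPKM in A498 and 6.5 ± 0.17 in 786-O (SD, n = 4). All these shares were read against the 83.8% of genes called between the lines.

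**Figure D2:**
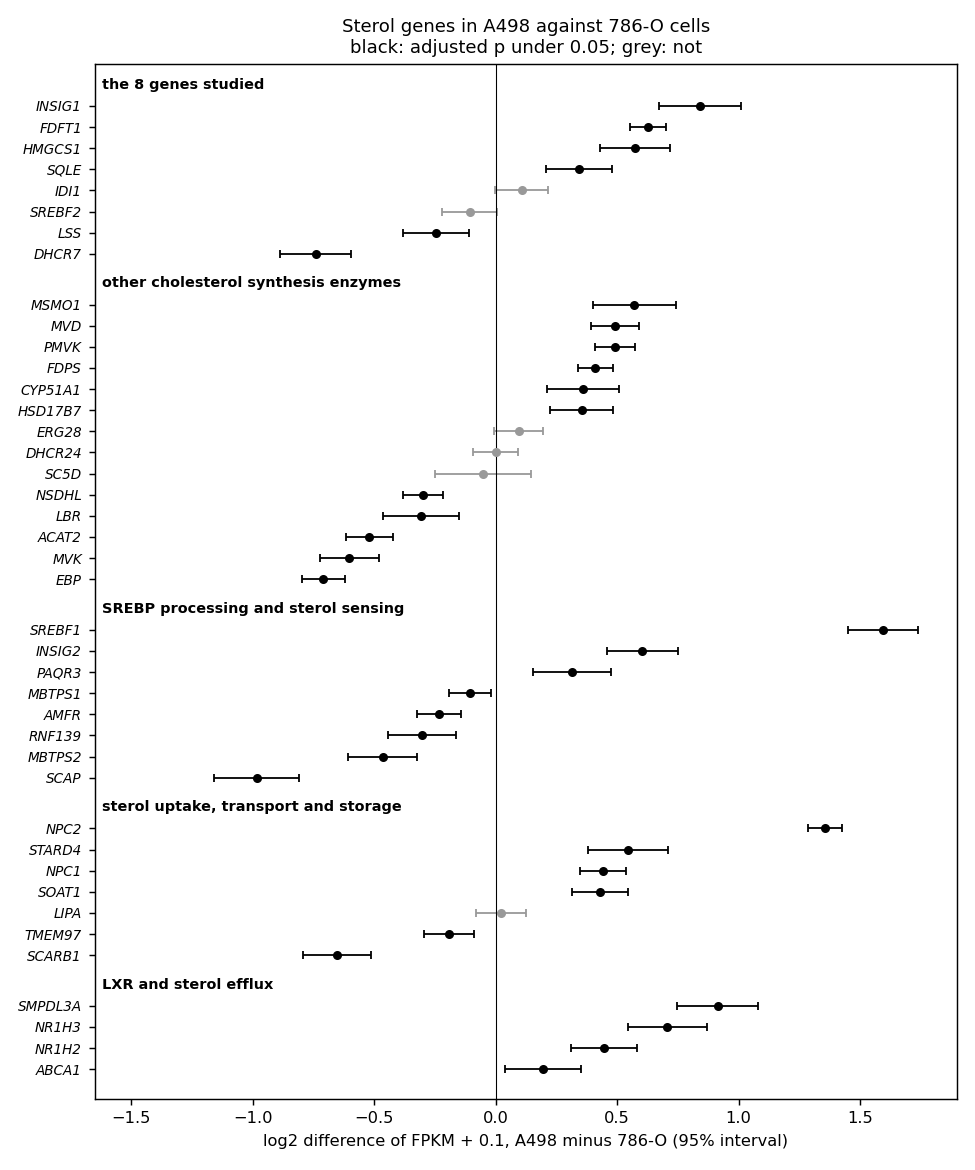
A498 minus 786-O difference on the log2(FPKM + 0.1) scale (x axis), as the limma estimate with its 95% interval, for the tested genes of 5 lists, in black where the adjusted p passed 0.05. Both directions occur among the 8 genes, from 0.84 for INSIG1 to -0.74 for DHCR7, and among the other enzymes, from 0.57 for MSMO1 to -0.71 for EBP.

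SLINKY knockdown was compared next, each siRNA against the 4 NTC libraries with the cell line as a covariate. Both comparisons share these NTC libraries. None of the 8 genes passed the limma test with either siRNA. With siRNA #1, 0 of 8 passed where 0.343% of all genes did (36 genes), and 1 of the 8 had an unadjusted p under 0.05, as had 10.6% of all genes. With siRNA #2, 0 of 8 passed where 0.0286% of all genes did (3 genes), and again 1 had an unadjusted p under 0.05, as had 13.5% of all genes. With so few calls among all genes, the absence of calls among 8 carries little information, and the intervals say more. The 95% intervals of the 8 genes reached in all from -0.43 to 0.25 on the log2 scale with siRNA #1 and from -0.25 to 0.31 with siRNA #2. The median log2 fold change of the 8 genes was 0.02 with siRNA #1 and 0.06 with siRNA #2, against 0.01 for all genes with each siRNA.

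INSIG1 had the widest log2 fold change with siRNA #1. It stood at 47.2 FPKM in A498, below both NTC libraries, and at 30.0 FPKM in 786-O, also below both, for a log2 fold change of -0.23 ± 0.09 (SE) with an interval from -0.43 to -0.02. The adjusted p was 0.431 by limma. The value was -0.10 without the A498 siRNA #1 library and -0.35 without the 786-O one. With siRNA #2 it lay between the NTC libraries in A498 and below both in 786-O, with a log2 fold change of -0.05 ± 0.09 (SE) and an adjusted p of 0.837 by limma. FDFT1 was above both NTC libraries with each siRNA in each line. In 786-O with siRNA #1 it stood at 39.0 FPKM against 38.8 in NTC 2. The deposited interval of the siRNA #1 library, 37.5 to 40.5 FPKM, included the NTC 2 value. The log2 fold change of FDFT1 was 0.03 ± 0.04 (SE) with siRNA #1. With siRNA #2 it was 0.10 ± 0.04 (SE) with an adjusted p of 0.348 by limma.

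HMGCS1 had log2 fold changes of 0.06 ± 0.08 (SE) with siRNA #1 and 0.13 ± 0.08 (SE) with siRNA #2, and the value for siRNA #2 came mostly from A498, where that library was the highest of the 4 (0.24 against 0.02 in 786-O, each over its NTC mean). DHCR7 stood at 0.07 ± 0.08 (SE) and 0.10 ± 0.08 (SE). SREBF2, IDI1, SQLE and LSS ranged from -0.02 to 0.03 with siRNA #1 and from -0.04 to 0.07 with siRNA #2. The sign of LSS turned under several alternatives with either siRNA. None of these passed the test.

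**Figure D3:**
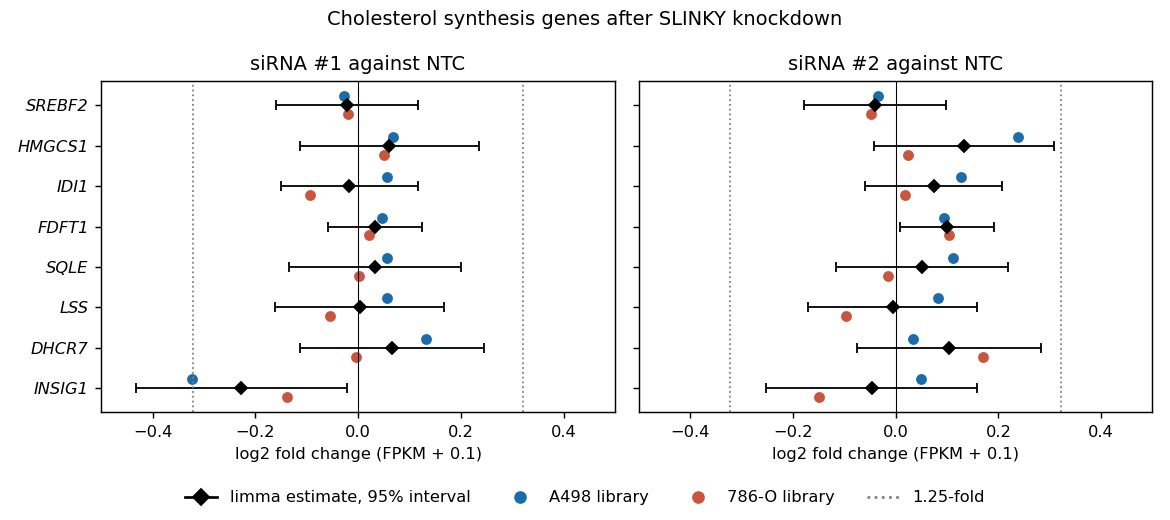
Log2 fold change against NTC (x axis, FPKM + 0.1) of the 8 genes with siRNA #1 (left) and siRNA #2 (right), with diamonds for the limma estimate over both lines and its 95% interval, circles for the A498 (blue) and 786-O (red) library against the mean of its NTC libraries, and dotted lines at the fold threshold of the study (0.32 either way). Only INSIG1 in A498 with siRNA #1 reaches a dotted line, at -0.32.

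The study read each siRNA library against its controls at a fold threshold, a 25% rise or the matching fall (0.32 either way on the log2 scale), and a single library has no replicate, so no test goes with it. By that rule 1 of the 8 genes passed in 1 of the 4 siRNA libraries, namely INSIG1 in A498 with siRNA #1, at 0.799 of the NTC mean and thus right at the threshold. The share of all genes past the threshold was 3.81% in A498 with siRNA #1, 5.49% in A498 with siRNA #2, 5.90% in 786-O with siRNA #1 and 3.92% in 786-O with siRNA #2. Between the NTC libraries of a line, 4.67% of all genes were past it in A498 and 4.63% in 786-O, though these set 1 library against 1 and not against a mean of 2, so the shares are not like for like. INSIG1 itself differed by 1.17-fold between the A498 NTC libraries, and against NTC 1 alone the A498 library with siRNA #1 was no longer past the threshold.

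The siRNAs were also set against each other, and 0 of the 8 genes passed the limma test where 0.371% of all genes did (39 genes), with 0 of the 8 and 9.33% of all genes at an unadjusted p under 0.05. INSIG1 had the widest difference, at -0.18 ± 0.10 (SE, siRNA #1 minus siRNA #2), with an interval from -0.42 to 0.06 and an adjusted p of 0.625 by limma. The change on knockdown in A498 minus that in 786-O, tested as an interaction with both siRNAs as the knockdown, passed in 0 of the 8 genes where 0.00952% of all genes did (1 gene), with 0 of the 8 and 1.82% of all genes at an unadjusted p under 0.05. The 8 differences were all above 0, from 0.00084 for DHCR7 to 0.14 for LSS, as were 5341 of all 10501. Every 95% interval included 0.

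In the other sterol lists, 0 genes passed the limma test with either siRNA. Of the 14 further enzymes tested, 3 had an unadjusted p under 0.05 with siRNA #1 (FDPS, MVD and EBP), where 10.6% of all genes did, and 4 with siRNA #2 (MVD, PMVK, EBP and ERG28), where 13.5% of all genes did. EBP stood at -0.13 ± 0.05 and -0.11 ± 0.05 with the 2 siRNAs, and with siRNA #2 PMVK stood at -0.14 ± 0.04 and ERG28 at 0.14 ± 0.05 (log2 fold change and SE). These 3 were picked out after their values were seen. FDPS, which makes farnesyl diphosphate just ahead of FDFT1, was the nearest to passing of the 14 enzymes with siRNA #1. It stood at 117 FPKM in A498 and 86.3 in 786-O with that siRNA. With NTC it stood at 137 and 132 FPKM in A498 and 103 and 101 in 786-O. Its log2 fold change with siRNA #1 was -0.22 ± 0.04 (SE), with an adjusted p of 0.0658 by limma. With siRNA #2 it was -0.02 ± 0.04 (SE). Of the 7 uptake, transport and storage genes tested, 2 had an unadjusted p under 0.05 with siRNA #1 (SCARB1 and STARD4). With siRNA #2 these were 2 as well (STARD4 and SOAT1), against the same shares of all genes. SOAT1 stood at 0.15 ± 0.06 (SE) with siRNA #2, with an adjusted p of 0.355 by limma. The LXR and fatty acid lists had 0 such genes with either siRNA. SCARB1 stood at 39.5 FPKM in A498 and 54.8 in 786-O with siRNA #1, below all NTC libraries of the same line (51.5 and 48.0, 75.5 and 87.2). Its log2 fold change was -0.45 ± 0.08 (SE), with an adjusted p of 0.0556 by limma, and -0.05 ± 0.08 (SE) with siRNA #2. Of the 8 genes of SREBP processing, 1 had an unadjusted p under 0.05 with siRNA #1 (RNF139, an ubiquitin ligase, 0.20 ± 0.08 (SE), adjusted p of 0.406 by limma) and 0 with siRNA #2, against the same shares of all genes. SREBF1 had log2 fold changes of 0.02 ± 0.08 (SE) and -0.10 ± 0.08 (SE). STARD4, a sterol carrier, was above NTC with both siRNAs (0.23 ± 0.09 and 0.27 ± 0.09, SE), as was the estimate of MSMO1 (0.17 ± 0.09 and 0.18 ± 0.09, SE), and MVD was below (-0.13 ± 0.05 and -0.17 ± 0.05, SE), with adjusted p from 0.304 to 0.539 by limma. In 786-O with siRNA #2, MSMO1 stood at 30.81 FPKM, between the NTC libraries (30.86 and 28.1). In A498 with siRNA #1 it stood at 47.5 FPKM, against 37.7 in NTC 1 and 46.7 in NTC 2.

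Within a line, the 8 genes did not move as 1 block. The log2 deviation of each library from the mean of its line was averaged over the 8 genes, and this average ran from -0.05 in A498 NTC 1 to 0.06 in A498 with siRNA #2, with SDs over the genes of 0.04 to 0.10. SQLE, HMGCS1 and IDI1 were low in A498 NTC 1 (-0.16, -0.15 and -0.10) and high in 786-O NTC 1 (0.08, 0.07 and 0.08). SREBF2, LSS and DHCR7 had the opposite signs there, though LSS only slightly in A498. They stood at 0.07, 0.02 and 0.05 in A498 NTC 1 and at -0.06, -0.05 and -0.11 in 786-O NTC 1. SREBF2 and LSS were highest in 786-O NTC 2 (0.09 and 0.13), where SQLE, HMGCS1 and IDI1 were low (-0.08, -0.11 and -0.04). A498 NTC 1 and 786-O NTC 2 were the deepest libraries of their lines, at an estimated 53000000 and 64600000 mapped reads. Whether depth had a part in this pattern was not tested. INSIG1 had the widest deviation of all, at -0.25 in A498 with siRNA #1.

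As a description over 8 libraries that share these 2 lines, Pearson's r of the deviations was 0.87 for HMGCS1 with SQLE, 0.79 for IDI1 with SQLE and 0.78 for HMGCS1 with IDI1. It was 0.78 for SREBF2 with LSS, and -0.87, -0.76 and -0.73 for SREBF2 with SQLE, HMGCS1 and IDI1. In A498 NTC 1 and 786-O NTC 2, the deepest libraries, SREBF2 was the highest of its line and SQLE and HMGCS1 the lowest. How far r rests on these libraries was not tested. For DHCR7 with INSIG1, r was -0.79. All other pairs lay between -0.55 and 0.51. The genes whose deviations were most like the mean of the 8 were C12orf60 (0.98), FOXRED1 (0.98), STT3A (0.98), STK4 (0.97) and ESYT2 (0.96). FAM72D (0.96), TPD52 (0.95), AXL (0.95), ETFDH (0.95) and FUBP1 (0.95) followed. They are the highest of the 10501 genes tested, without the 8 themselves, compared over 8 libraries. How high the top values of r would be by chance was not tested.

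**Figure D4:**
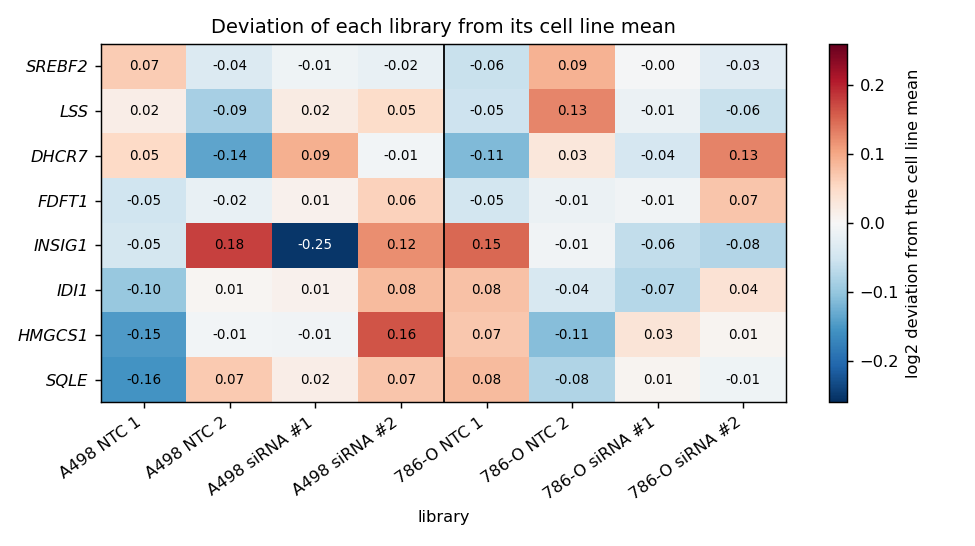
Log2 deviation (color, printed in each cell) of each library (columns) from the mean of its cell line for the 8 genes (rows), with the A498 libraries left of the black line. SQLE, HMGCS1 and IDI1 are low in A498 NTC 1 and high in 786-O NTC 1. SREBF2, LSS and DHCR7 have the opposite signs in these libraries, at only 0.02 for LSS in A498 NTC 1. A498 NTC 1 and 786-O NTC 2 were the deepest libraries of their lines. The widest value is -0.25 for INSIG1 in A498 with siRNA #1.

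The genes differed in their number of RefSeq entries. SREBF2 (chromosome 22, hg19, 42229106 to 42302375), IDI1 (chromosome 10, 1085964 to 1095061), FDFT1 (chromosome 8, 11660190 to 11696818) and SQLE (chromosome 8, 126010720 to 126034525) had 1 protein-coding entry each. The width of the deposited intervals corresponds to 1030 to 3082 reads per library for SREBF2, 2059 to 4512 for IDI1, 2626 to 5922 for FDFT1 and 3384 to 6189 for SQLE. The 95% intervals of SQLE were 40.2 to 42.3 FPKM in A498 NTC 1 and 46.8 to 49.6 in A498 NTC 2, so libraries of 1 group differed by more than counting error, which is what these intervals cover.

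HMGCS1 (chromosome 5, 43287572 to 43313614) and DHCR7 (chromosome 11, 71145457 to 71159477) had 2 entries, INSIG1 (chromosome 7, 155089486 to 155101945) had 3 and LSS (chromosome 21, 47608360 to 47648738) had 4, between which Cufflinks divides the reads. The share of the larger DHCR7 entry, NM_001163817, ran from 76.1% to nearly all of the gene's FPKM, that of the larger HMGCS1 entry, NM_002130, from 80.8% to nearly all, and that of the main LSS entry, NM_001145436, from 67.5% to 95.8%. For INSIG1, NM_198336 held 50.1% to 62.9% and NM_005542 held 30.5% to 42.6%. These splits were poorly determined in some libraries. In A498 with siRNA #2, NM_198336 was listed at 33.1 FPKM with an interval from 0 to 79.8, and NM_001145436 at 7.84 FPKM with one from 1.31 to 14.4. The NTC libraries of a line differed in these shares, and in 786-O NM_002130 held nearly all of HMGCS1 in NTC 1 and 80.8% in NTC 2, and the main LSS entry 83.2% and 95.8%. The levels used here are sums over the entries. When each gene was read from its highest entry instead, 3 of the 8 genes passed the fold threshold in A498 with siRNA #1, 1 in A498 with siRNA #2 and 2 in each 786-O siRNA library. The share of all genes past it, read the same way, was 8.99%, 12.1%, 11.0% (786-O with siRNA #1) and 9.28% (786-O with siRNA #2). In a later annotation (GENCODE v44, mapped to hg19) exons of SREBF2, HMGCS1, IDI1, FDFT1 and LSS overlapped exons of genes on the opposite strand, and the kit does not mark strand, so such reads cannot be told apart.

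**Figure D5:**
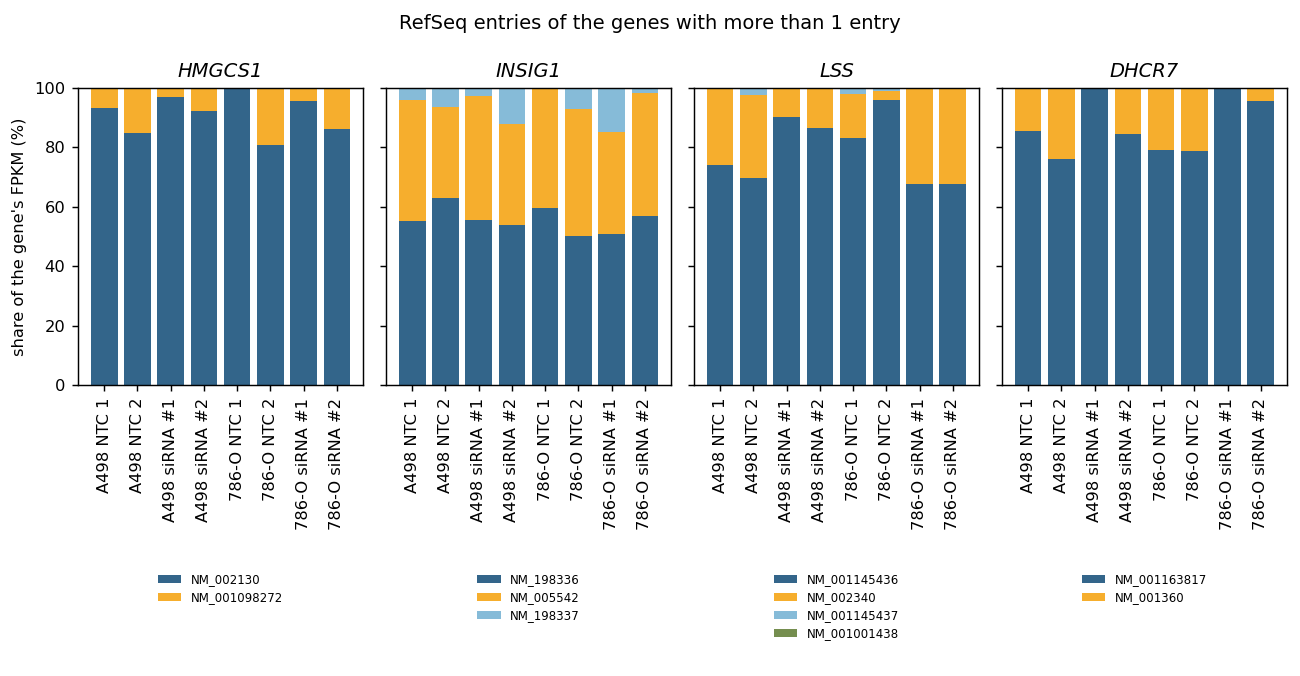
Share of the gene's FPKM (y axis, in percent) that each RefSeq entry held in each of the 8 libraries (x axis), for the 4 genes with more than 1 protein-coding entry. The main entry varies from 67.5% to 95.8% for LSS and from 50.1% to 62.9% for INSIG1, and the NTC libraries of 786-O differ for HMGCS1 and LSS.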

How the data were processed

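RNA-seq of 8 libraries was analysed. According to the study, single-end 36 bp reads were mapped to hg19, and the submitters' processing notes name TopHat2 2.0.0 and Cufflinks 2.0.2. The authors deposited FPKM per transcript entry for each library, with a 95% interval, and no scaling between libraries is stated. Each table held 75378 entries. The 35951 protein-coding RefSeq entries were given current symbols (97.7% matched) and summed per symbol. FPKM was used as deposited, on the log2(FPKM + 0.1) scale, which understates the change of low genes.

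limma 3.58.1 in R 4.3.3 was fitted with a variance trend, with cell line, siRNA #1 and siRNA #2 as terms over all 8 libraries, and with knockdown by cell line as an interaction, with Benjamini-Hochberg adjustment at 0.05 over 10501 genes. The fits were tested on simulated data. Single libraries were set against the NTC mean at a 25% rise or the matching fall. Reads behind a gene were taken from the interval width, which gave whole numbers (within 0.02) for 78.8% to 91.1% of low single-exon genes.

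The 8 genes were all named, along with up to 6 passing genes of each further list and the 10 genes with the most alike deviations. Where no gene of a list passed in a comparison, some genes with wide changes were named. Others with changes of similar size were not. The genes and lists were chosen with earlier results of these data known. Alternatives were other pseudocounts, filters, scaling, entries, variance models, replicate blocks and leaving out each library. Promoter windows were from RefSeq (GRCh38.p14). Some other sterol genes are not reported here. Python 3.11.15, numpy 2.4.6, pandas 2.3.3 and matplotlib 3.10.9 were used. No count test was run, because the tables hold no counts.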

Additional observations from a re-analysis of the deposited data

How the results depend on the processing

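INSIG1, FDFT1, HMGCS1, SQLE and DHCR7 passed between the cell lines under all 19 alternatives, and LSS under 18. SREBF2 passed under 2 and IDI1 under 4, always in the same direction. None of the 8 genes passed with either siRNA, between the siRNAs or in the interaction under any alternative. Leaving out an NTC library leaves 1 control in that line, taken to vary like the other libraries, and leaving out a siRNA library leaves the value of that siRNA resting on the other line.

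Values near 0 turned sign. With siRNA #1, LSS was -0.00768 after median ratio scaling, -0.0331 from its highest entry and -0.00134 with both siRNAs pooled as the knockdown, where IDI1 was 0.0284. Leaving out 1 library moved LSS between -0.0321 and 0.0533, IDI1 between -0.0737 and 0.0394, SQLE between -0.0215 and 0.0740, DHCR7 between -0.0247 and 0.158 and SREBF2 between -0.0515 and 0.00762 with siRNA #1. With siRNA #2, it moved LSS between -0.0765 and 0.0649, SQLE between -0.00384 and 0.106 and INSIG1 between -0.177 and 0.0843. The cause was not tested.

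The count of the 8 genes past the fold threshold of the study in A498 with siRNA #1 was 1, and became 0 with a pseudocount of 1, 0 at 1.5-fold and 3 from the highest entry, and it was 0 to 1 when 1 NTC library was left out. From the highest entry it was 1 in A498 with siRNA #2, 2 in 786-O with siRNA #1 and 2 in 786-O with siRNA #2, against 0 for each as the sum.

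Over all genes, the alternatives gave 5972 to 11589 calls between the lines, 0 to 71 for siRNA #1, 0 to 12 for siRNA #2, 0 to 52 between the siRNAs and 0 to 16 for the interaction. The NTC replicate numbers did not pair the lines (r of -0.26 across genes between the NTC differences). With the replicate block, 6 of the 8 genes still passed between the lines, as did 8671 of all 10501 genes tested. In each other comparison 0 of the 8 passed. Of all genes, 20 passed for siRNA #1, 1 for siRNA #2 and 3 between the siRNAs. With the numbers crossed, a pairing chosen after the data were seen, 8 of the 8 genes passed between the lines. So did 9020 of all 10501 genes tested. For siRNA #1, for siRNA #2 and between the siRNAs, 71, 11 and 49 of all genes passed. Depth, at 25100000 mapped reads in the shallowest library, and 1 library per siRNA and line limit what can be detected.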
